A study of Mus musculus with 18 samples.

Results

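The proteasome is the protease complex that degrades proteins tagged with ubiquitin. Its core particle stacks rings of alpha subunits, which gate the entry, and rings of beta subunits, which hold the proteolytic sites. Its regulatory particle recognises tagged proteins, removes the ubiquitin and unfolds the substrate with a ring of ATPases. Interferon and immune cells switch on alternative catalytic beta subunits that replace the constitutive ones in newly built cores. Here the genes of the constitutive subunits were followed through the healing of the mouse carotid artery after wire injury. The members were the genes named *Psma*, *Psmb*, *Psmc* or *Psmd* with a number, without the inducible *Psmb8*, *Psmb9* and *Psmb10*, whose counts over all libraries summed to 90 or more. Of 39 genes with such a name, 34 were members, out of 35655 genes in the count table. The others were the 3 inducible genes, *Psma8* with 12 counts and *Psmb11* with 62 counts, and the member with the lowest total was *Psmd10* with 180 counts. All 34 members passed the filter on low counts, which left 10312 genes to test.

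The samples were carotid arteries of wild type (WT) C57/BL6 mice, by the methods of the study young adult males injured with a wire in the left carotid only, the right one serving as control, with thrombosed vessels removed. Vessel sections with the outer elastic lamina and the neointima were cut out by laser and sequenced at the 3′ ends of their mRNA by MACE-seq, a method in which each transcript gives a tag at its end, so that counts do not scale with transcript length. The groups were day 0, before injury (4 libraries), and 4 later times: day 7 (4 libraries), day 14 (3 libraries), day 21 (4 libraries) and day 28 (3 libraries), with no treatment besides the injury. The question of the design was how expression after injury differed from the state before it. The libraries held between 440675 and 878310 counts each (median 659166). The study calls the neointima samples pooled, and how many mice a library holds was not given in the sources used here. In addition, 3 library numbers in the labels occur on both day 0 and day 21, and the labels do not say whether they mark the same mouse. The main tests treated the libraries as independent, so p-values measure the spread between these libraries. The dissected wall changed in makeup: the summed level of 12 contractile smooth muscle markers went from 40439.7 to 46039 CPM (counts scaled to a common library size) before injury to 2061 to 8453 CPM on day 7, and stood at 10563 to 25976 CPM on day 21. The sum of 16 macrophage markers went from 165 to 597 CPM to 5874 to 8453 CPM by day 7, and stood at 2315 to 3978 CPM on day 21.

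Constitutive proteasome transcripts stood highest on day 7 and lowest on day 21. The summed level of the 34 members was 4343, 4842, 4977 and 4405 CPM in the 4 libraries of day 0 and 6113, 5116, 5929 and 5618 CPM on day 7. It was 4285, 4043 and 4284 CPM on day 14, 3114, 3417, 3356 and 3199 CPM on day 21 and 4306, 3807 and 4178 CPM on day 28. Every library of day 7 lay above every other library, and every library of day 21 lay below every other library. For days 0, 7, 14, 21 and 28 in this order, the means were 4642 ± 315, 5694 ± 436, 4204 ± 139, 3272 ± 139 and 4097 ± 259 CPM (SD, with n as above). These sums are given without a test. In dissected tissue, fewer cells of a type and less RNA per cell cannot be told apart, and CPM is a share of each library.

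The gene sets of both particles had their highest mean on day 7 and their lowest on day 21. The daily means of the summed 14 core genes, in the same order, were 2469 ± 222, 3013 ± 308, 2271 ± 72.8, 1699.6 ± 88.3 and 2118 ± 173 CPM (SD). Those of the 20 regulatory genes were 2173 ± 151, 2681 ± 199, 1933 ± 94, 1572 ± 111 and 1978.8 ± 99.4 CPM. The regulatory set, also in the ratio that follows, includes the assembly chaperones *Psmd5*, *Psmd9* and *Psmd10*, which are not part of the finished particle. The ratio of core to regulatory counts ranged from 0.973 to 1.27 over the libraries, and its daily means lay between 1.07 on day 28 and 1.18 on day 14. Among single members, 27 of 34 had their highest daily mean on day 7 and 23 had their lowest on day 21.

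**Figure D1:**
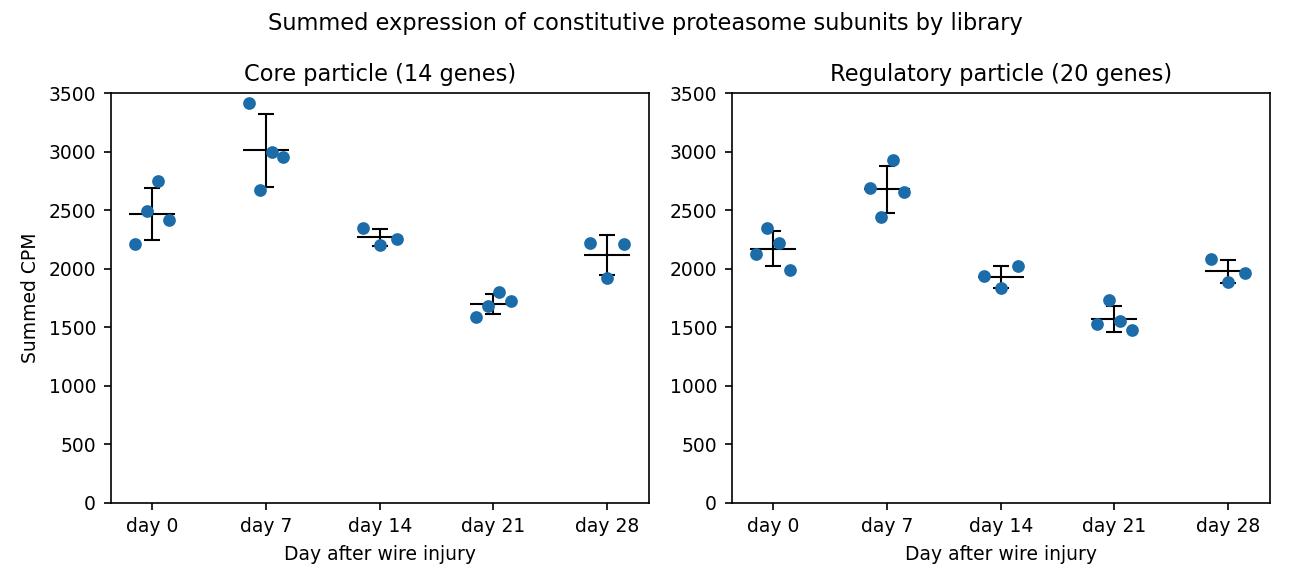
Summed CPM of the 14 core genes (left) and the 20 regulatory genes, assembly chaperones included (right), on the vertical axis against day after wire injury. Points are libraries, the long bar is the mean and the whiskers are 1 SD; in both panels the libraries of day 7 lie above those of day 21, with core means of 3013 ± 308 and 1699.6 ± 88.3 CPM.

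The members were well measured for these shallow libraries. Their mean levels over the 18 libraries ran from 16.1 CPM for *Psmd10* to 342 CPM for *Psmb1*, with a median of 115 CPM, and 1 of the 612 values was 0 counts, that of *Psmd10* in day 0 replicate 1. The highest value was 393 counts. The median biological coefficient of variation, the spread between libraries beyond counting error, was 0.276 for the members. It was 0.452 for all genes tested and 0.405 for genes in the same range of CPM.

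Across the 5 days, 10 of 34 members differed (edgeR quasi-likelihood test with Benjamini-Hochberg adjustment over all genes tested), which is 29.4% of the members against 18% of all genes. They were *Psma2* and *Psma7* of the alpha ring, *Psmb1* and *Psmb4* of the beta ring, the ATPases *Psmc3* and *Psmc5*, and *Psmd2*, *Psmd3*, *Psmd6* and *Psmd13* of the regulatory particle. At an unadjusted p under 0.05 the test held 20 members, and DESeq2 called 15, among them all 10. The count was 3 without day 21 replicate 4, 4 without day 21 replicate 3, and 6 without day 21 replicate 1 or without any single library of day 7.

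On day 7 most members stood above day 0, but none passed the test in edgeR. The log2 fold change against day 0 was above 0 for 31 of 34 members, with a median of 0.34 beside 0.07 over all genes. In edgeR 0 members were called higher, against 11.3% of all genes, and 0 lower, against 8.53%. At an unadjusted p under 0.05 there were 7 members higher and 0 lower. DESeq2 called 3 higher, the alpha subunits *Psma1* and *Psma7* and *Psmd12*, a lid subunit, and edgeR gave *Psma1* a log2 fold change 0.73, SE 0.27, adjusted p = 0.0592, and *Psmd12* a log2 fold change 0.73, SE 0.29, adjusted p = 0.0767. Only 3 members had every library of day 7 above every library of day 0, against 13.6% of all genes. The assembly chaperone *Psmd10*, also known as gankyrin, had the largest fold change at 1.68 but an interval of 0.02 to 3.33. *Psmb6*, *Psmb2* and *Psma2* were the 3 members with values below 0, at -0.44, -0.11 and -0.14. The edgeR count was 1 without day 0 replicate 3, day 7 replicate 4 or day 28 replicate 2.

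From day 7 to day 21, 12 members fell, and 21 of the other 22 had a lower level as well. The log2 fold change was below 0 for 33 of 34 members, with a median of -0.85 beside 0.0051 over all genes. In edgeR 12 members (35.3%) were called lower, against 3.23% of all genes, and 0 were called higher, against 4.03%, with 0 higher at an unadjusted p under 0.05 and 0 higher by DESeq2. The 12 were *Psma2*, *Psma4*, *Psma6* and *Psma7* of the alpha ring, *Psmb1*, *Psmb4* and *Psmb5* of the beta ring, *Psmc3* and *Psmc5* of the ATPase ring, and *Psmd3*, *Psmd6* and *Psmd13* of the lid, the part of the regulatory particle that carries the deubiquitinase. By ring, this was 4 of 7 alpha genes, 3 of 7 beta genes, 2 of 6 ATPase genes, 3 of 11 non-ATPase genes and 0 of the 3 assembly chaperones. DESeq2 called 19 members lower, among them the same 12. For 24 members every library of day 21 lay below every library of day 7, against 9.18% of all genes. Only *Psmd11*, a lid subunit that bridges the lid to the core, had a value above 0, at 0.17, with an interval of -0.39 to 0.74. Without day 7 replicate 1 edgeR called 7 members, and *Psma7*, *Psmb1*, *Psmc3*, *Psmd3* and *Psmd13* were called in all 25 other settings tried.

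**Figure D2:**
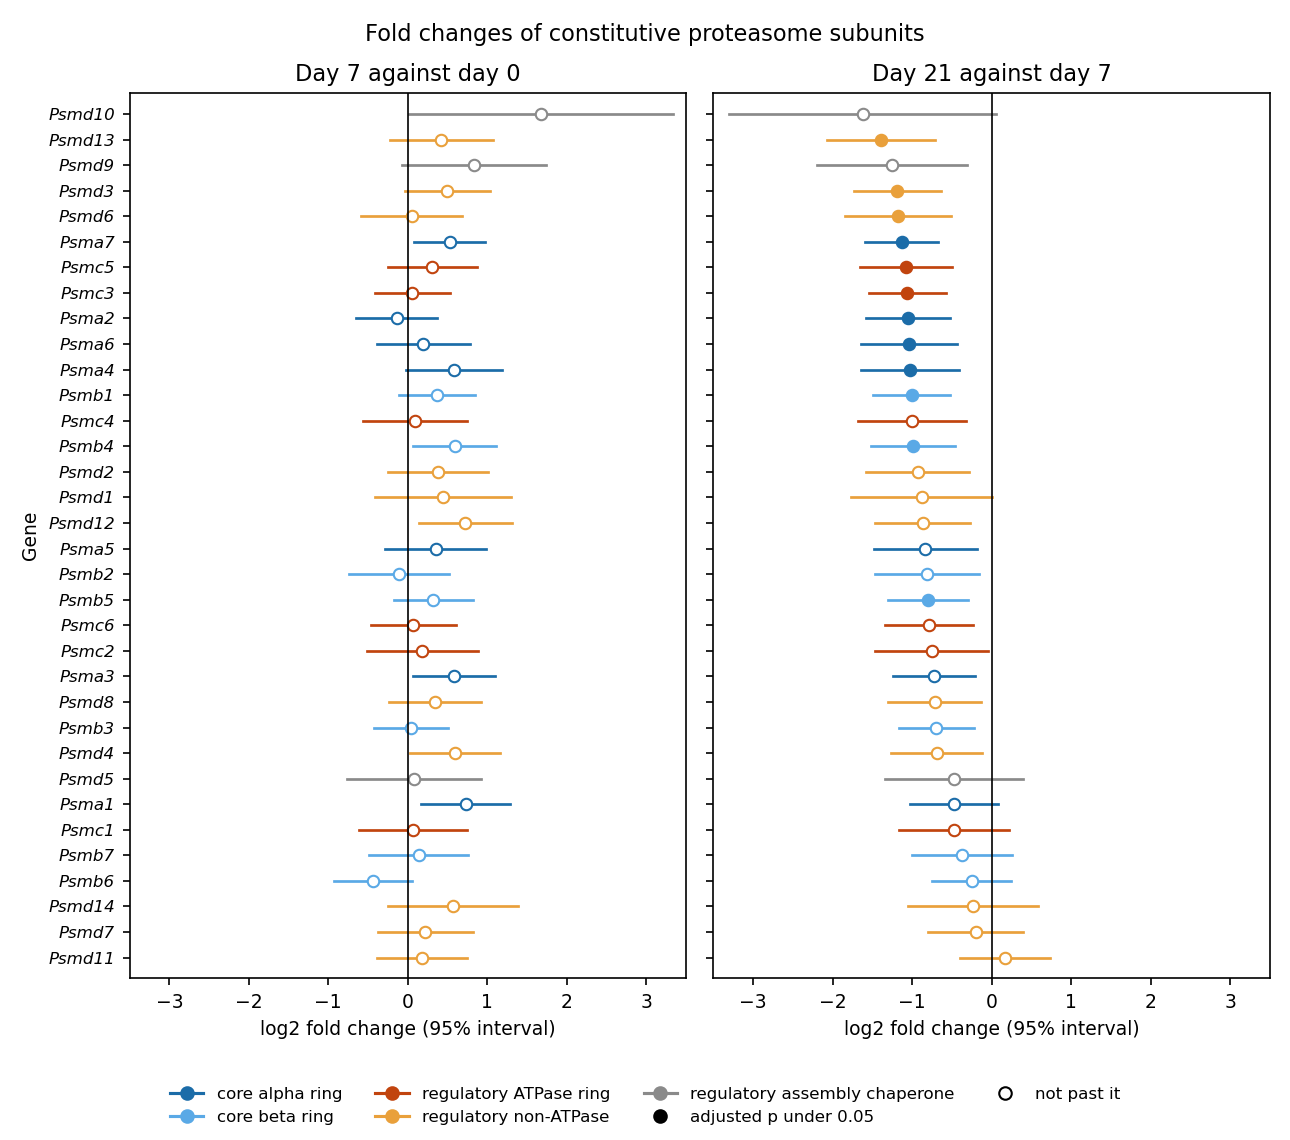
Log2 fold change of each member with its 95% interval, day 7 against day 0 (left) and day 21 against day 7 (right), ordered by the right panel. Filled points passed an adjusted p of 0.05 and colours give the subcomplex; 0 points are filled on the left and 12 on the right, where 33 of 34 lie below 0.

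In the alpha ring, *Psma7*, the member with the highest mean of this ring, had the smallest p of the fall from day 7 to day 21. *Psma7* was at 183, 271, 292 and 259 CPM on day 0 and at 404, 271, 409 and 365 CPM on day 7. It was at 171, 251 and 214 CPM on day 14, at 174, 159, 179 and 149 CPM on day 21 and at 231, 266 and 228 CPM on day 28. All libraries of day 21 were below all libraries of the other days except day 14 replicate 1, which lay inside the range of day 21. The fall from day 7 was 2.19-fold (log2 fold change -1.13, SE 0.22, adjusted p = 0.00206). *Psma2*, another alpha subunit, took another course. *Psma2* was at 168, 201, 218 and 192 CPM on day 0 and at 240.4, 167, 149.5 and 150.1 CPM on day 7. It was at 142, 146 and 123 CPM on day 14, at 103, 60.5, 87.2 and 88.4 CPM on day 21 and at 124, 71.1 and 78.3 CPM on day 28. It stood as high on day 0 as on day 7, the 2 ranges overlapping, and the libraries of day 21 were below all libraries of both. It was lower than before injury on day 21 (log2 fold change -1.19, SE 0.25, adjusted p = 0.00384). On day 28 it also passed the test against day 0 (log2 fold change -1.09, SE 0.28, adjusted p = 0.0462), a call lost in 17 of 25 other settings. The call against day 7 on day 21 (log2 fold change -1.05, SE 0.26, adjusted p = 0.0105) was lost without day 7 replicate 1, with an adjusted p of 0.0712.

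*Psma4* and *Psma6*, also gate-forming alpha ring genes, were called lower on day 21 than on day 7. *Psma4* was at 83.4, 95.6, 131 and 84 CPM on day 0 and at 176, 135, 95.7 and 181 CPM on day 7. It was at 152, 152 and 142 CPM on day 14, at 54.4, 88.8, 55.9 and 93.1 CPM on day 21 and at 151, 69.5 and 79.9 CPM on day 28. On day 14 this gene was still in the range of day 7, and day 21 lay below both. *Psma6* was at 104, 132, 210.2 and 108 CPM on day 0 and at 196, 113, 181 and 144 CPM on day 7. It was at 133, 101 and 115 CPM on day 14, at 87.5, 56.5, 69.1 and 95.4 CPM on day 21 and at 106, 164 and 86.3 CPM on day 28. The libraries of day 21 were all below those of day 7, and those of day 28 spread over both ranges. Their falls from day 7 to day 21 were -1.02 (adjusted p = 0.0362) and -1.04 (adjusted p = 0.0286) on the log2 scale, lost in 7 and 5 of 25 other settings. The call of *Psma4* was lost without any one of day 7 replicates 1, 2 and 4, day 14 replicate 3 and day 21 replicates 1 and 3 (adjusted p up to 0.130), and that of *Psma6* without any one of day 7 replicates 1 and 3 and day 21 replicates 1, 2 and 3 (adjusted p up to 0.116). In edgeR *Psma3* and *Psma5* were called between day 28 and day 7 and in no other comparison, while DESeq2 also called both in the any-day test and *Psma3* on day 21 against day 7. *Psma3* was at 222, 246, 158 and 173 CPM on day 0 and at 395, 201, 319 and 279 CPM on day 7. It was at 289.5, 233 and 210.1 CPM on day 14, at 162, 179.6, 184 and 198 CPM on day 21 and at 231, 132 and 131 CPM on day 28. Day 7 replicate 1 was the highest library and the ranges of day 7 and day 28 overlapped. *Psma5* was at 109, 63.4, 96.9 and 91.9 CPM on day 0 and at 121, 108, 106 and 124 CPM on day 7. It was at 75.2, 74.1 and 74.4 CPM on day 14, at 71, 66.6, 60.8 and 58.2 CPM on day 21 and at 56, 66.2 and 16 CPM on day 28. Day 28 replicate 3 was far below the other libraries of its day, and all of day 28 was below all of day 7. Their log2 fold changes on day 28 against day 7 were -0.85 (adjusted p = 0.0382) and -1.31 (adjusted p = 0.0131). The first was lost without any one of day 7 replicates 1 and 3, day 21 replicates 3 and 4 and day 28 replicates 2 and 3 (adjusted p up to 0.160), the second without day 28 replicate 3 (log2 fold change -0.89). *Psma1*, the remaining member of the ring, had means between 94.4 CPM on day 0 and 157 CPM on day 7 and passed no test in edgeR.

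The beta ring was led by *Psmb1*, a non-catalytic subunit and the most abundant member. *Psmb1* was at 277, 385, 404 and 344 CPM on day 0 and at 354, 367, 462 and 634 CPM on day 7. It was at 301, 302 and 333 CPM on day 14, at 158, 250.3, 255 and 244 CPM on day 21 and at 286, 417 and 382 CPM on day 28. Day 7 replicate 4 was the highest library and day 21 replicate 1 the lowest, and the 4 libraries of day 21 were below the 14 others. The fall from day 7 to day 21 was 2.01-fold (log2 fold change -1.01, SE 0.24, adjusted p = 0.00811). *Psmb4*, a non-catalytic subunit that is added late in assembly, was called on both day 21 and day 28 against day 7. *Psmb4* was at 165, 148, 216 and 231 CPM on day 0 and at 342, 284, 279 and 241 CPM on day 7. It was at 229, 228 and 206 CPM on day 14, at 154, 129, 156 and 137 CPM on day 21 and at 154, 71.1 and 189 CPM on day 28. Each library of days 14, 21 and 28 was below each library of day 7. The values were log2 fold change -0.99, SE 0.26, adjusted p = 0.0174 on day 21, and log2 fold change -1.05, SE 0.28, adjusted p = 0.0132 on day 28. The first was lost without day 7 replicate 1, day 21 replicate 2 or day 21 replicate 4 (adjusted p up to 0.0778), the second without day 7 replicate 1 or day 28 replicate 2 (adjusted p up to 0.0856). *Psmb5*, which carries the chymotrypsin-like site, was close to the threshold. *Psmb5* was at 182, 197, 219 and 194 CPM on day 0 and at 267, 261, 263 and 200.2 CPM on day 7. It was at 163, 131 and 190.5 CPM on day 14, at 95.8, 169.5, 184 and 121 CPM on day 21 and at 192, 154 and 256 CPM on day 28. All libraries of day 21 lay below the lowest of day 7, and the fall (log2 fold change -0.80, SE 0.25, adjusted p = 0.0477) was lost in 16 of 25 other settings, among them each of 13 libraries left out: day 0 replicates 2 to 4, day 7 replicates 1 to 3, day 14 replicates 1 to 3, day 21 replicates 1, 2 and 4 and day 28 replicate 1 (adjusted p up to 0.176). *Psmb6*, with the caspase-like site, and *Psmb7*, with the trypsin-like site, passed no test, and their log2 fold changes between day 21 and day 7 were -0.25 (-0.75 to 0.25) and -0.37 (-1.0 to 0.26). *Psmb6*, at 235 ± 72.8 CPM (SD, n = 4), and *Psmb2* were the beta genes with their highest mean on day 0. *Psmb2* and *Psmb3*, both non-catalytic, had log2 fold changes of -0.81 and -0.69 on day 21 against day 7 and passed no test in edgeR, while DESeq2 called *Psmb3* in this comparison.

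In the ATPase ring the log2 fold changes of days 14, 21 and 28 against day 7 were below 0 for all 6 genes, and on day 21 edgeR called 2 genes and DESeq2 4. *Psmc3* was the most abundant. *Psmc3* was at 250.1, 307, 248.9 and 243 CPM on day 0 and at 240.4, 246, 329 and 278 CPM on day 7. It was at 168, 191 and 270.1 CPM on day 14, at 110.0, 151, 166 and 95.4 CPM on day 21 and at 269, 238 and 276 CPM on day 28. Days 0, 7 and 28 shared one range, and the 4 libraries of day 21 lay below it. On day 21 it was lower than on day 7 (log2 fold change -1.06, SE 0.23, adjusted p = 0.00529) and than on day 0 (log2 fold change -1.0, SE 0.23, adjusted p = 0.00746), in all 25 and all 26 other settings. *Psmc5* was the second ATPase called in edgeR. *Psmc5* was at 110.2, 145, 95.4 and 87.9 CPM on day 0 and at 134, 115, 144 and 152 CPM on day 7. It was at 76.8, 115 and 78.3 CPM on day 14, at 63.9, 78.7, 74 and 39.6 CPM on day 21 and at 94.8, 59.5 and 73.5 CPM on day 28. Every library of day 21 was below every library of days 0 and 7, and the fall from day 7 was 2.11-fold (log2 fold change -1.08, SE 0.28, adjusted p = 0.0167), lost without day 21 replicate 4 (adjusted p = 0.0798). *Psmc1*, *Psmc2*, *Psmc4* and *Psmc6* had log2 fold changes of -0.47, -0.76, -1.0 and -0.79 in this comparison and passed no test in edgeR, while DESeq2 called *Psmc4* and *Psmc6* lower.

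Among the non-ATPase genes of the regulatory particle, the falls from day 7 to day 21 were largest for 3 structural genes of the lid, *Psmd13*, *Psmd3* and *Psmd6*. *Psmd13* was at 235, 110.0, 134 and 109 CPM on day 0 and at 175, 106, 253 and 253 CPM on day 7. It was at 88, 93.5 and 172 CPM on day 14, at 50.9, 98.9, 82.2 and 69.8 CPM on day 21 and at 129, 152 and 121 CPM on day 28. Day 0 replicate 1 and day 7 replicates 3 and 4 were high, day 7 replicate 2 was just below the range of day 0, and all of day 21 was below all of days 0 and 7. The fall of *Psmd13* was 2.62-fold (log2 fold change -1.39, SE 0.33, adjusted p = 0.0086). *Psmd3* was at 186, 149, 142 and 139 CPM on day 0 and at 196, 169, 267 and 239 CPM on day 7. It was at 128, 127 and 142 CPM on day 14, at 105, 139, 60.8 and 76.8 CPM on day 21 and at 129, 180.3 and 214 CPM on day 28. The libraries of day 21 did not reach those of day 7, and those of day 28 overlapped both day 0 and day 7. The fall of *Psmd3* was 2.27-fold (log2 fold change -1.19, SE 0.27, adjusted p = 0.00587). *Psmd6* was at 53.6, 112, 103 and 101 CPM on day 0 and at 81.9, 104, 75.8 and 121 CPM on day 7. It was at 54.4, 54.7 and 56.1 CPM on day 14, at 40.2, 54.5, 39.5 and 34.9 CPM on day 21 and at 79, 31.4 and 51.1 CPM on day 28. Days 0 and 7 overlapped, and of the later libraries only day 28 replicate 1 reached the range of day 7. *Psmd6* was lower on day 21 than on day 7 (log2 fold change -1.18, SE 0.33, adjusted p = 0.025) and than on day 0 (log2 fold change -1.13, SE 0.32, adjusted p = 0.0284), calls that were lost in 5 of 25 and 7 of 26 other settings. The first was lost without any one of day 7 replicates 2 and 4 and day 21 replicates 1, 3 and 4 (adjusted p up to 0.0836), the second without any one of day 0 replicates 2 to 4 and day 21 replicates 1, 3 and 4 (adjusted p up to 0.0817).

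*Psmd2*, the large base subunit on which ubiquitin receptors dock, was the one regulatory gene that edgeR called between day 28 and day 7, and DESeq2 called *Psmc5* there as well. *Psmd2* was at 69.98, 152, 85 and 122 CPM on day 0 and at 132, 173, 155 and 100.1 CPM on day 7. It was at 89.6, 93.5 and 71.8 CPM on day 14, at 91.1, 50.5, 55.9 and 95.4 CPM on day 21 and at 73.2, 33.1 and 54.3 CPM on day 28. All libraries of days 14 and 28 were below all libraries of day 7. The value on day 28 was a log2 fold change -1.38, SE 0.35, adjusted p = 0.00964, and without day 28 replicate 2 the adjusted p was 0.0604. *Psmd8*, the most abundant non-ATPase gene, passed no test. *Psmd8* was at 192, 203, 283 and 215 CPM on day 0 and at 278, 286, 223 and 350.3 CPM on day 7. It was at 256, 214 and 256 CPM on day 14, at 110.0, 252, 210.5 and 121 CPM on day 21 and at 251, 119 and 273 CPM on day 28. Day 21 was split, with replicates 1 and 4 low and replicates 2 and 3 among the other days. The remaining lid and base genes also passed no test in edgeR. *Psmd14*, the deubiquitinase of the lid, and its partner *Psmd7* had log2 fold changes of -0.24 (-1.05 to 0.58) and -0.20 (-0.81 to 0.40) on day 21 against day 7. *Psmd4*, a ubiquitin receptor, *Psmd12* of the lid and *Psmd1*, a base scaffold, had -0.69, -0.87 and -0.88. DESeq2 called *Psmd12*, and also *Psmd2*, lower on day 21 than on day 7.

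The 3 assembly chaperones *Psmd5*, *Psmd9* and *Psmd10*, which help to build the ATPase base and are not part of the finished particle, were the least abundant members with *Psmd1*. *Psmd5* had the highest mean of them. *Psmd5* was at 19.4, 32.3, 38.8 and 26.2 CPM on day 0 and at 39.2, 27, 37.9 and 19.4 CPM on day 7. It was at 41.6, 31.8 and 35.2 CPM on day 14, at 21.3, 18.2, 21.4 and 27.9 CPM on day 21 and at 28.7, 28.1 and 43.1 CPM on day 28. Days 0, 7 and 28 overlapped, and the 3 libraries of day 14 lay above the 4 of day 21. *Psmd9* and *Psmd10* had log2 fold changes of -1.26 (-2.2 to -0.31) and -1.62 (-3.3 to 0.06) on day 21 against day 7, and neither passed the edgeR test, while DESeq2 called *Psmd9*. On day 0 *Psmd10* had 0 counts in replicate 1 and 1.2 CPM in replicate 2, beside 23.8 and 11.8 CPM in the other two, so its fold changes against day 0 were poorly measured.

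**Figure D3:**
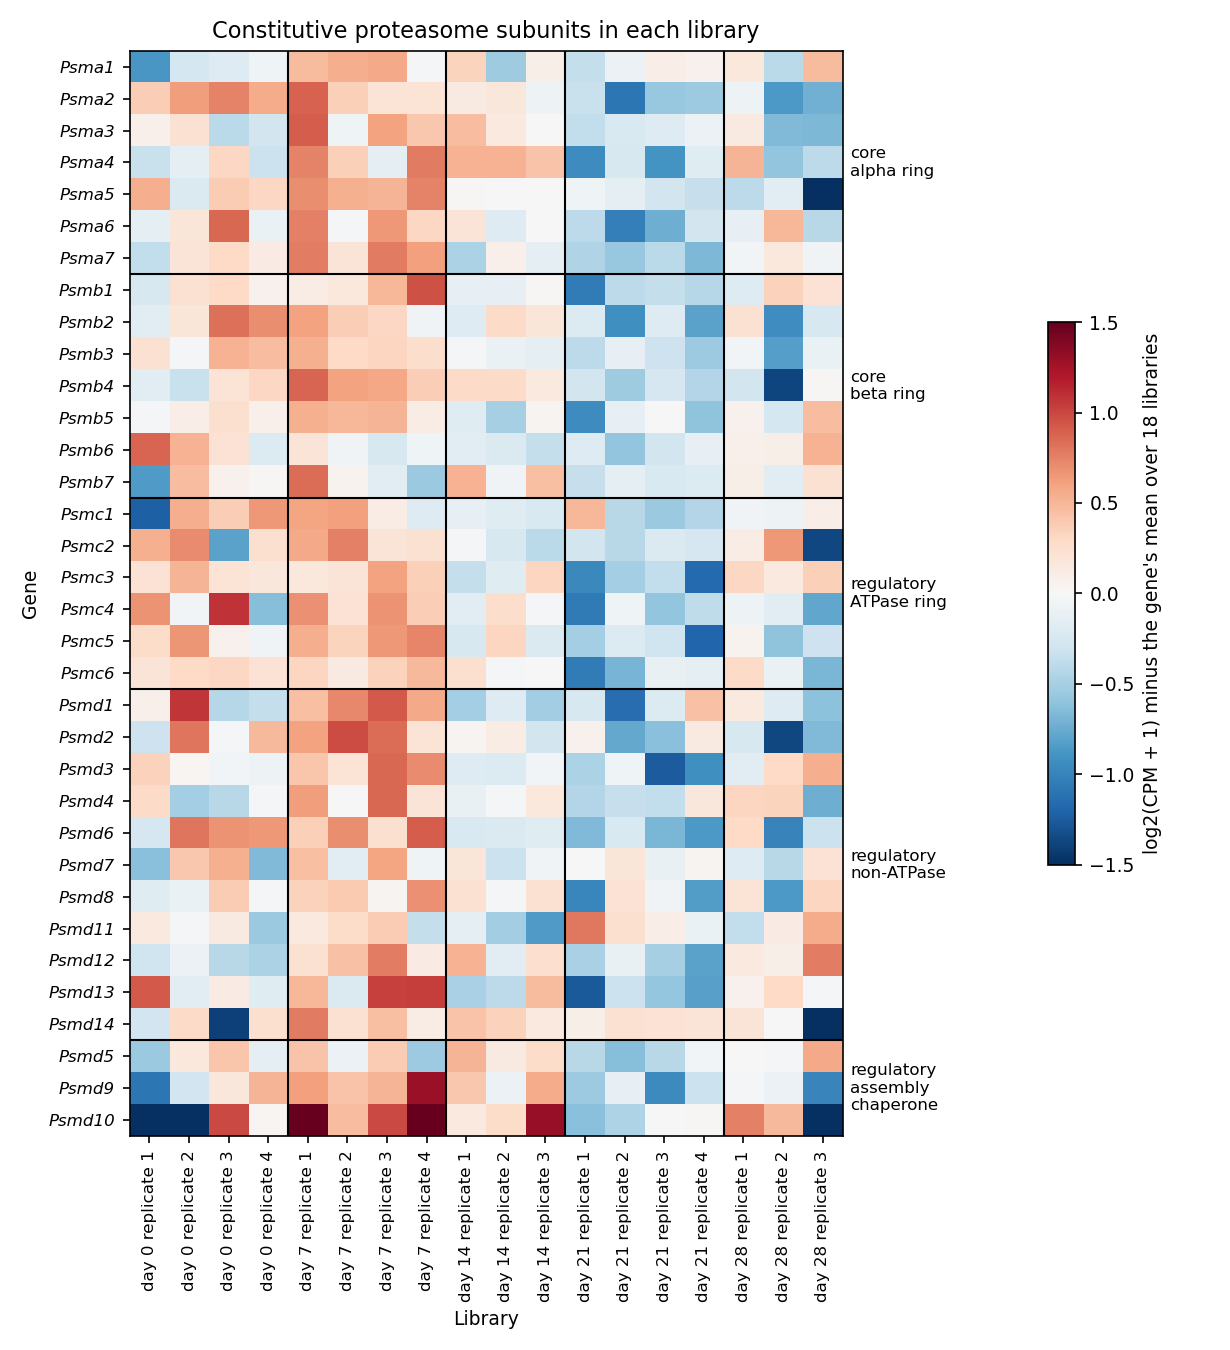
Level of the 34 members (rows, by subcomplex) in the 18 libraries (columns, by day), as log2(CPM + 1) minus the gene's mean, with values beyond 1.5 in either direction drawn at the end of the scale. The columns of day 7 are mostly red and those of day 21 mostly blue, with 27 highest means on day 7 and 23 lowest on day 21.

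Set against the vessel before injury, the low level of day 21 was the main difference. On day 21 the log2 fold change was below 0 for 29 of 34 members, with a median of -0.48 beside 0.07 over all genes. In edgeR 3 members were called lower, *Psma2*, *Psmc3* and *Psmd6*, against 2.93% of all genes, and 0 higher, against 5.92%. At an unadjusted p under 0.05 there were 14 lower and 0 higher. DESeq2 called 6 lower and 0 higher, beside 437 lower and 839 higher of all genes. For 10 members day 21 lay wholly below day 0, against 6.81% of all genes. The count was 5 without day 0 replicate 1.

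On days 14 and 28 the members differed less from day 0. On day 14 the log2 fold change was below 0 for 22 of 34 members, with a median of -0.25 beside 0.05, which became -0.16 without day 0 replicate 3. In edgeR 0 were called higher, against 4.8% of all genes, and 0 lower, against 1.42%. At an unadjusted p under 0.05, 2 were lower and 0 higher. DESeq2 called 0, beside 227 lower and 633 higher of all genes. On day 28 there were 23 of 34 members below 0, with a median of -0.18 beside -0.0062. Leaving out day 0 replicate 2 gave a median of -0.09, leaving out day 28 replicate 3 gave -0.10, and with library totals alone it was -0.08 beside 0.09 over all genes. In edgeR 1 was called lower, *Psma2*, against 0.369% of all genes, and 0 were called higher, against 0.97%. At an unadjusted p under 0.05 there were 6 lower and 1 higher. DESeq2 called *Psma2* alone, beside 139 lower and 227 higher of all genes. The settings that ended the call of *Psma2* held each of 13 libraries left out: day 0 replicates 2 to 4, day 7 replicates 1 and 2, day 14 replicates 1 to 3, day 21 replicates 1, 3 and 4 and day 28 replicates 2 and 3 (adjusted p up to 0.185).

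Between day 7 and day 14 most members were lower without passing the test. On day 14 against day 7 the log2 fold change was below 0 for 31 of 34 members, with a median of -0.45 beside -0.0075 over all genes. In edgeR 0 were called lower, against 0.33% of all genes, and 0 higher, against 1.33%. There were 8 lower and 0 higher at an unadjusted p under 0.05. DESeq2 called *Psma7* lower, beside 97 lower and 220 higher of all genes. Between day 14 and day 21, a comparison added after the data were seen, the log2 fold change was below 0 for 30 of 34 members, with a median of -0.47 beside -0.0036. In edgeR 0 members were called in either direction, and of all genes 0% were called higher and 0% lower. At an unadjusted p under 0.05 there were 5 lower and 1 higher. DESeq2, which gave an adjusted p to 5 members here, called 0, beside 25 lower and 5 higher of all genes.

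On day 28 the summed level stood between those of day 21 and day 7. On day 28 against day 7 the log2 fold change was below 0 for 31 of 34 members, with a median of -0.50 beside -0.07 over all genes. In edgeR 5 members were called lower, *Psma2*, *Psma3*, *Psma5*, *Psmb4* and *Psmd2*, which is 14.7% of members against 8.05% of all genes, and 0 higher, against 6.4%, with 0 higher at an unadjusted p under 0.05. DESeq2 called 7 lower and 0 higher, beside 1106 lower and 775 higher of all genes. The edgeR count was 1 without day 28 replicate 2, and it was 2 when either day 28 replicate 3 or day 7 replicate 1 was left out. The call of *Psma2* (log2 fold change -0.95, SE 0.28, adjusted p = 0.0216) was lost without any one of these 3 libraries and with only the 2 days in the fit (adjusted p up to 0.110). On day 28 against day 21, also added after the data were seen, 27 of 34 members were above 0, with a median of 0.29 beside -0.07, which became 0.10 without day 28 replicate 1. In edgeR 0 were called higher, against 0.107% of all genes, and 0 lower, against 0.572%. There were 6 higher and 0 lower at an unadjusted p under 0.05. DESeq2 called *Psmc3* higher, beside 92 higher and 237 lower of all genes. Without day 7 replicate 4, day 21 replicate 3 or day 28 replicate 1, edgeR called 1 higher. These comparisons share libraries, so their values are not independent of each other.

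The 3 inducible catalytic subunits rose on day 7. They replace *Psmb5*, *Psmb6* and *Psmb7* in the immunoproteasome, the form of the core that cells make under interferon. *Psmb8* was at 7.44, 25.1, 50.7 and 21 CPM on day 0 and at 160.3, 194, 134 and 115 CPM on day 7. It was at 24, 235 and 58.7 CPM on day 14, at 69.8, 52.5, 47.7 and 48.9 CPM on day 21 and at 30.2, 13.2 and 44.7 CPM on day 28. Day 7 lay wholly above day 0, day 14 replicate 2 was the highest of all, and day 28 was back in the range of day 0. All 3 were higher on day 7 than on day 0: *Psmb8* (log2 fold change 2.53, SE 0.53, adjusted p = 0.00115), *Psmb9* (log2 fold change 1.9, SE 0.63, adjusted p = 0.0328) and *Psmb10* (log2 fold change 1.55, SE 0.40, adjusted p = 0.00625). *Psmb8* was also higher on day 14 than on day 0 (log2 fold change 2.01, SE 0.55, adjusted p = 0.0279), though replicate 1 of day 14 lay inside the range of day 0. Calls of genes that are not members, here and below, were not refitted with libraries left out. *Psmb8* (log2 fold change -2.35, SE 0.59, adjusted p = 0.00826) and *Psmb9* (log2 fold change -2.4, SE 0.73, adjusted p = 0.0284) were lower on day 28 than on day 7.

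Counts of the inducible genes were closer to those of the constitutive genes on day 7 than on day 0. The count ratio of *Psmb8* to *Psmb5* was 0.127 ± 0.0788 before injury, 0.606 ± 0.1 7 days after it (SD, n = 4 each) and 0.139 ± 0.0470 28 days after it (SD, n = 3). That of *Psmb9* to *Psmb6* was 0.0543 ± 0.0443, 0.260 ± 0.0475 and 0.0440 ± 0.0457 at these times. That of *Psmb10* to *Psmb7* was 0.377 ± 0.138, 1.06 ± 0.222 and 0.475 ± 0.2489. In each pair the 4 libraries of day 7 were above the 4 of day 0. On day 21 the ratios of the pairs, in the same order, were 0.425 ± 0.211, 0.143 ± 0.0529 and 0.860 ± 0.0535 (SD, n = 4). For *Psmb8* to *Psmb5* and *Psmb10* to *Psmb7* all libraries of day 21 were above those of day 0. For *Psmb9* to *Psmb6* the ranges of these days overlapped. On day 14 the ratio of *Psmb8* to *Psmb5* ran from 0.147 to 1.80 over 3 libraries, replicate 2 being the high one. These ratios are given without a test.

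**Figure D4:**
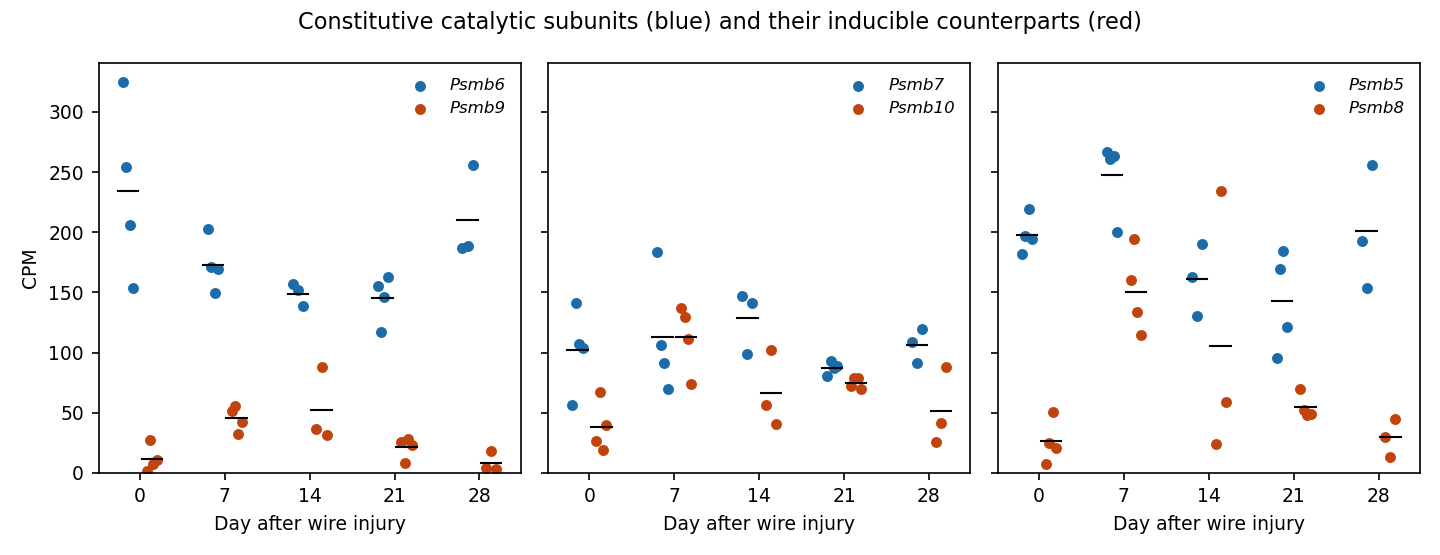
CPM of each constitutive catalytic gene (blue) and its inducible counterpart (red) against day after wire injury. Points are libraries and bars are means; *Psmb10* reached the level of *Psmb7* on day 7, with a mean count ratio of 1.06, while *Psmb9* stayed below *Psmb6* in every library.

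Of the other genes of the pathway few passed the test in edgeR. *Sem1*, a small fixed lid subunit outside the naming rule, was lower on day 21 (log2 fold change -1.06, SE 0.26, adjusted p = 0.0117) and on day 28 (log2 fold change -0.95, SE 0.29, adjusted p = 0.0262) than on day 7, and the ubiquitin receptor gene *Adrm1* did not pass the filter on low counts. Of 6 genes for ubiquitin and its activating enzymes only *Rps27a*, which encodes ubiquitin fused to a ribosomal protein, passed. It was higher on day 7 than on day 0 (log2 fold change 0.68, SE 0.18, adjusted p = 0.00649) and lower than on day 7 on day 21 (log2 fold change -0.69, SE 0.18, adjusted p = 0.0152) and on day 28 (log2 fold change -0.84, SE 0.19, adjusted p = 0.00436). Of 8 regulators of subunit genes, *Nfe2l1*, the transcription factor that raises proteasome genes when degradation is impaired, was higher on day 28 than on day 7 (log2 fold change 0.74, SE 0.23, adjusted p = 0.0308). None of the 5 activator and inhibitor genes, the 5 core assembly chaperones, the 7 proteasome-bound factors tested or the 10 shuttle and unfolding genes passed any of these edgeR comparisons, while DESeq2 called 1 gene of each of the first 3 lists in 1 comparison: *Psme3* on day 28 against day 7, *Pomp* on day 21 against day 7 and *Ube3c* on day 28 against day 21. The any-day test in edgeR held 0 of the first 3 lists and 1 gene of the last, *Ddi2*, at an unadjusted p under 0.05.

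Other cell types moved with the same days. All 15 macrophage markers tested were called higher on day 7 than on day 0, and 4 of 15 were called lower on day 21 than on day 7. Of 11 contractile smooth muscle markers tested, 10 were called lower on day 7 than on day 0 and 8 higher on day 21 than on day 7. Of 12 proliferation markers, 10 were called higher on day 7 than on day 0 and 6 lower on day 21 than on day 7, and their summed level went from 72.9 to 155 CPM before injury to 419.7 to 853 CPM by day 7 and 129.9 to 199 CPM by day 21. Red cell markers summed to 164 to 2347 CPM on day 7 and neutrophil markers to 189 to 682 CPM, against 32.3 to 291 CPM and 14 to 503 CPM on day 21. The part of these cells in the levels of the members was not tested. From day 7 to day 21 the macrophage marker sum and the sum of the members both fell. On day 21 the macrophage marker sum was above that of every day 0 library, and the sum of the members was below that of every day 0 library. *Mpeg1*, a macrophage marker, was at 0 in all libraries of day 0. Other markers of this list were detected there, among them *Lyz2* at 40.6 to 255 CPM. *Cd163*, the macrophage marker not tested, went the other way, from 10.5 to 16.7 CPM on day 0 to 0 to 5.34 CPM on day 7. Fibroblast markers summed to 2611 to 3819 CPM on day 0, 1039 to 2086 CPM on day 7 and 3221 to 5169 CPM on day 21. Endothelial markers summed to 649 to 1192, 687 to 2239 and 688 to 1358 CPM on these days. Skeletal muscle markers reached 260 CPM in day 21 replicate 1 and 258 CPM in day 14 replicate 2. Nerve and glia markers reached 186 CPM in day 21 replicate 2. The part of these cell types was not tested either. The highest sums of lymphocyte and adipocyte markers in any library were 57.9 and 9.59 CPM.

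The members lie on 15 chromosomes (GRCm39, GENCODE release M39), with 6 on chromosome 11 and 5 on chromosome 2. *Psma7* lies at chr2:179678155-179684421 on the minus strand, *Psmb1* at chr17:15691080-15720013 on the minus strand, *Psmc3* at chr2:90884354-90896714 on the plus strand and *Psmd13* at chr7:140461854-140478560 on the plus strand. Exons of 15 members overlap an exon of a gene on the other strand, and whether the counting used strand was not given in the sources used here. Among the members called lower on day 21, the 3′ ends of *Psmc5* and of *Smarcd2*, which had 751 counts, overlap in this way, as do those of *Psmd13* and *Cox8b*, which had 24 counts. For these pairs the split of counts is uncertain. *Psmb1* and *Psmd6* have no such overlap and no near copy of their 3′ end. Processed pseudogenes with nearly the same 3′ end as *Psma2*, *Psma4*, *Psmb5* and *Psmd2* had at most 1 count each where the table lists them, and their reads may have been counted in the parent gene.

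Promoter sequence was available for 28 members, 30 windows in all, from 250 bases before to 50 bases after the start (RefSeq, GRCm38.p6). Motifs were searched on both strands as plain letters: CCAAT, the box bound by NF-Y, TGANNNNGC, the core of the antioxidant response element bound by *Nfe2l1* and *Nfe2l2*, and GGGCGG, the GC box. CCAAT was found in 11 of 30 windows (36.7%) and in 37.4% of all 32851 windows of the table. TGANNNNGC was found in 17 of 30 (56.7%), against 41.3%, and GGGCGG in 18 of 30 (60%), against 35.7%. The median GC content was 55.8% for members and 52.7% for all windows, and matches of different motifs overlapped in 3 member windows. Windows of the members called lower on day 21 than on day 7 held TGANNNNGC in 7 of 10 and windows of the other members in 10 of 20. CCAAT went the other way, in 3 of 10 against 8 of 20, as did GGGCGG, in 5 of 10 against 13 of 20. The 10 windows belonged to 9 genes, and these differences were not tested. A match of letters is a description of the sequence and no site. The 6 members without a window were *Psmb1*, *Psmb2*, *Psmb7*, *Psmc3*, *Psmd3* and *Psmd7*.

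For each subcomplex with a called gene, a promoter is shown. It belongs to the called member with a window and the smallest p on day 21 against day 7. The choice rests on each gene's own p, and a shared control of these genes was not tested. Capitals mark CCAAT or TGANNNNGC on either strand, and the sequences run 5′ to 3′ along the gene. *Psma7* (GRCm38.p6 chr2:180042415-180042714, minus strand) has CCAAT at base -196 and TGANNNNGC at base 42, counted from the start. *Psmb4* (chr3:94886909-94887208, minus strand) has TGANNNNGC on the reverse strand from base 18 and *Psmd13* (chr7:140882144-140882443, plus strand) on the forward strand from base 2. *Psmc5* (chr11:106255935-106256234, plus strand) has neither in this window.
Psma7: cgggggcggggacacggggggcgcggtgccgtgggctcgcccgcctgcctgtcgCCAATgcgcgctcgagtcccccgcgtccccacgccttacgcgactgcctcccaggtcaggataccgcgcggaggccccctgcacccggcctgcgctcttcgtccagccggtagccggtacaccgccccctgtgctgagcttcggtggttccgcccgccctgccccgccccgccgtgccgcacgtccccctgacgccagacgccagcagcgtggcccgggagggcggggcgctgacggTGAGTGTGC
Psmb4: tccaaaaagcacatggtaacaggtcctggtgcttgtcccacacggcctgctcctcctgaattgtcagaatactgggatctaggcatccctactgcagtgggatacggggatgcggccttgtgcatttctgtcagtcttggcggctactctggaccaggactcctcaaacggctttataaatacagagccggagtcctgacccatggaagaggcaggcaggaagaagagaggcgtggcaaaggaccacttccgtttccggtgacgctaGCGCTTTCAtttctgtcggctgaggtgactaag
Psmc5: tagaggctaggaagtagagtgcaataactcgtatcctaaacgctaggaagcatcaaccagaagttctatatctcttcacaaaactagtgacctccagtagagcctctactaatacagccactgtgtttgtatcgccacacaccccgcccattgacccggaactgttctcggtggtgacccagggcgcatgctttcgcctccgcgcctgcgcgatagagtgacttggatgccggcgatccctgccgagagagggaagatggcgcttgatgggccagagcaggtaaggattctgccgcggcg
Psmd13: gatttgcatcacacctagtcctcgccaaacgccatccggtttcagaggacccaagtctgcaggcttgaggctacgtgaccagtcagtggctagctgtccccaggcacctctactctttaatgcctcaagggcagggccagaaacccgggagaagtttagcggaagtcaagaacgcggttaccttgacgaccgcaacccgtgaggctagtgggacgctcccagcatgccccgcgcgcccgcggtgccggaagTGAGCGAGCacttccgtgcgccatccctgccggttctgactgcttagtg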

How the data were processed

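MACE-seq libraries of 18 laser-dissected carotid samples were analysed. The authors used Salmon (v1.9.0 in the submitters' processing notes) to assign trimmed reads, deduplicated by molecular barcode, to mouse transcripts (mm39), and deposited estimated counts per gene, which were whole numbers, together with a second table of counts normalised by DESeq2 (v1.36.0) with fold changes and p-values of their own comparisons, which was not used here. Genes were kept by filterByExpr, TMM factors ran from 0.926 to 1.10, and day was the only term of 1 edgeR quasi-likelihood fit over all libraries (R 4.3.3, edgeR 4.0.16), p-values being adjusted by Benjamini-Hochberg across the 10312 tested genes and called under 0.05. CPM used the total over tested genes times the TMM factor. DESeq2 (1.42.0) was an alternative, beside other scalings, no filter, fits of 2 days, blocks and leaving out each library. Near copies were sought with BLAST (2.17.0) on the last 300 bases, at 95% identity over 150 bases. Counts were simulated to check both tools, and 9824 genes passed the filter. The spread followed the trend over all genes, and a small part of the genes was changed, on day 21 only. The median coefficient of variation was 0.452 for all genes and 0.276 for the members. The shares found therefore do not describe the members. For day 21 against day 7, edgeR found 4% of the 2-fold and 70% of the 4-fold changes, with a false share of 5.13% among its calls. DESeq2 found 5% and 67% there, with a false share of 17.2%. For day 21 against day 0 the false share was 2.47% in edgeR and 10.6% in DESeq2. DESeq2 had the higher false share in this simulation, and calls made by it alone are taken as less certain. Replicate numbers were not taken to pair libraries: the deviations of 33 same-numbered pairs correlated at -0.13 to 0.20. The 3 pairs with the same number in the labels correlated at -0.0067 to 0.055. Values in every library are given for members called in at least 1 test and for the most abundant member of each subcomplex, the other members being summarised, and genes of other pathway lists are named where called. The members and lists were chosen with earlier results of these data known. Counting error at these depths makes 3 counts, taken as the floor, 3.55 to 6.98 CPM.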

Additional observations from a re-analysis of the deposited data

Results flagged for a closer look

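On the days with 4 libraries, 105 groups of values (34 members and their sum on days 0, 7 and 21) were searched for a library far from the other 3. The gap passed Dixon's 95% limit in 6 groups (5.71%), where chance gives about 1 in 20. *Psmc3* was at 307 CPM in day 0 replicate 2, beside 243 to 250.1 CPM in the other libraries. *Psmb5* was at 200.2 CPM in day 7 replicate 4, below 261 to 267 CPM, and *Psmd9* was at 66.2 CPM in the same library, above 35.9 to 41.0 CPM. *Psmb1* was at 158 CPM in day 21 replicate 1, below 244 to 255 CPM, and *Psmc1* was at 130.1 CPM in the same library, above 62.5 to 68.6 CPM. *Psmd4* was at 168 CPM in day 21 replicate 4, above 110.0 to 117 CPM. The summed level of the members was not among these groups.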

How the results depend on the processing

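Over 528 refits of the 21 calls of single members, 448 calls were kept, 80 were lost and 0 changed direction. Numbers of members called moved most. DESeq2 called 3 higher on day 7 and 6 lower on day 21 against day 0, 1 lower on day 14 and 19 lower on day 21 against day 7, and 1 higher on day 28 against day 21. RLE factors gave 1 higher on day 7 against day 0. Library totals alone gave 1 higher on day 7 and 0 lower on day 28 against day 0, and 1 higher on day 28 against day 21. Without the filter, with only 2 days in the fit and with the replicate block, 0 were lower on day 28 against day 0. Fits of 2 days gave 1 lower on day 28 against day 7. An adjusted p under 0.1 gave 3 higher on day 7 and 13 lower on day 21 against day 0, 1 higher on day 28 against day 21, and 17 in the any-day test. With the replicate block, whose numbers were not taken to pair the libraries, the any-day count was 6. Apart from this and the count on day 28 against day 0, it changed no number of members called by over 1.5 times. With the number in the description as a block, the median on day 21 against day 0 was -0.63. Leaving out each library gave 0 to 1 higher on day 7, 2 to 5 lower on day 21 and 0 to 1 lower on day 28 against day 0, 7 to 13 lower on day 21 and 1 to 6 lower on day 28 against day 7, 0 to 1 higher on day 28 against day 21 with a median of 0.10 to 0.34, and 3 to 13 in the any-day test. The causes were not tested. Other scalings moved the median of all genes by less than 0.1 and turned no median of the members. Depth limits the members below about 30 CPM, *Psmd5*, *Psmd9* and *Psmd10*.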
